A study of Mus musculus with 4 samples.

Results

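Immediate-early genes and the genes that restrain ERK signalling were examined across 4 lines of mouse LMTK- fibroblasts. The set has 31 genes, which encode AP-1, EGR, KLF and NR4A transcription factors, MYC, IER proteins, the RNA-binding protein tristetraprolin (Zfp36), dual-specificity phosphatases, and Sprouty and Spred proteins. Its members are the 62 probe sets that the platform annotation assigns to 1 of these genes, out of 45037 probe sets that are not controls and 18194 genes named on the array. The genes were chosen by name and not by their signals, though with results of these arrays already known. A probe set, the unit of the Affymetrix Mouse Genome 430 2.0 Array, is a group of short probes for 1 transcript, and a gene may have several.

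Immediate-early genes are transcribed within minutes of a growth factor, serum or stress signal, from promoters that are already poised, and many of their mRNAs decay quickly. The kinase ERK, at the end of the RAS, RAF and MEK cascade, phosphorylates ternary complex factors that act with serum response factor at CArG boxes, while CREB acts at cyclic AMP response elements. The feedback arm follows, in which dual-specificity phosphatases remove the activating phosphates of MAP kinases and Sprouty and Spred proteins damp the cascade upstream of ERK. In fibroblasts this system is the classical readout of serum addition after starvation.

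LMTK- cells are mouse fibroblasts that descend from L cells and lack thymidine kinase. All 4 lines were stably transfected with the expression vector pCI-neo, empty in vector 1 and vector 2, and with the cDNA of mouse melanotransferrin (MTf), a membrane-anchored iron-binding protein, in clones MTf 4 and MTf 6. The comparison asks which transcripts differ when this protein is overexpressed. Each line was measured on 1 array, so each group has n = 2. Each MTf line is 1 clone, and for the vector lines no label tells separate clones or cultures apart. The p-values therefore rest on the spread among these 4 samples alone, which the limma test pools in part across probe sets. Part of that spread may be technical. The labels used here give neither the serum condition nor the cell density at harvest, both of which are known to set the level of these genes.

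Values are array signals on a linear scale, scaled by the authors so that the 2%-trimmed mean was 1000.01 in every array. Differences are MTf minus vector on the scale log2(signal + 32), and a fold is 2 to the power of such a difference, so changes of dim probe sets are understated. Signals are given throughout in the order vector 1, vector 2, MTf 4, MTf 6. Meltf, the gene of melanotransferrin, was at 265 and 274 in the vector lines and 1519 and 1885 in the clones, as the labels have it. The fibroblast genes Vim, S100a4, Col1a2, Col1a1, Col3a1, Col5a1 and Pdgfrb were above the low-signal filter, but Thy1, Dcn, Lum and Fap were below it in a list of 11. Summed signals of this list lay between 182075 and 221488 per array, against 1246 to 2330 for 6 macrophage genes, 691 to 1241 for 5 epithelial genes, 552 to 655 for 4 endothelial genes, 805 to 1334 for 5 melanocyte genes and 854 to 1380 for 4 muscle genes. Much of the fibroblast sum came from Vim (74441 to 94073) and S100a4 (65756 to 75392). Also above the filter were 4 macrophage genes (Lyz2, Csf1r, Cd68 and Adgre1) and 1 gene each of the endothelial, melanocyte and muscle lists. Within the epithelial list Epcam, an adhesion protein, was at 131 and 40.1 in the vector lines and 326 and 405 in the clones, by a probe set of the x type. Both clones were above both vector lines, with a difference of 1.87 (SE 0.51; limma, unadjusted p = 0.00772, adjusted p = 1.00). The vector lines were below the filter value of 206, so this probe set was tested only through the clones, where it was high. Cdh1, Krt18 and Krt14 were below the filter, Krt8 was at 572, 505, 419 and 520, and the part of such cells in the members' differences was not tested. For the Actb control, 3' signals were 1.23, 1.22, 1.21 and 1.31 times the 5' signals in the same order of lines, highest in MTf 6. For the Gapdh control they were 0.67 to 0.69 times.

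Promoter windows of RefSeq (build GRCm38.p6, from 250 bases before to 50 bases after a transcription start) were found for 23 of the 31 genes, in 27 windows. Fosl1, Egr1, Egr3, Klf10, Myc, Ier2, Dusp4 and Spry4 were not matched. A CArG box, which is CC, then 6 A or T, then GG, was present in windows of 3 member genes, Egr2, Zfp36 and Dusp5, and in 1.63% of all 32851 windows of this length. The core TGACG of the cyclic AMP response element, on either strand, was present for 12 member genes and in 20.8% of all windows, the full TGACGTCA, which contains that core on both strands, for Dusp1 alone and in 1.79%, and TGACATCA, on either strand, for Jun and Klf6 and in 3.62%. The EGR-type sequence GCGGGGGCG, on either strand, was present for 7 member genes and in 2.91% of windows. The AP-1 sequence TGAGTCA, searched on both strands, was found in 0 of the 27 windows and in 5.20% of all. Counted by window, 22.2% of the 27 member windows held a CArG box, 51.9% TGACG, 3.7% TGACGTCA, 7.41% TGACATCA and 25.9% GCGGGGGCG. Several Egr2 windows overlap and share a site, so these windows are not independent. A match is a description of letters, not of a bound site. Sites more than 250 bases before a start lie outside the windows. A window without a match, such as that of Fos for the CArG box, therefore does not show that the gene lacks the site.

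Shown here are the windows of 5 genes to which the results return: Fos, Dusp1 and Nr4a1, which were high in the same 2 lines, and Jun and Dusp5, which were higher in both clones. Capitals mark CArG boxes, TGACG on either strand and TGACATCA. The Fos window is chr12:85473640-85473939, plus strand, the Nr4a1 window chr15:101266596-101266895, plus strand, the Dusp1 window chr17:26508423-26508722, minus strand, the Jun window chr4:95052173-95052472, minus strand and the Dusp5 window chr19:53528895-53529194, plus strand.
Fos: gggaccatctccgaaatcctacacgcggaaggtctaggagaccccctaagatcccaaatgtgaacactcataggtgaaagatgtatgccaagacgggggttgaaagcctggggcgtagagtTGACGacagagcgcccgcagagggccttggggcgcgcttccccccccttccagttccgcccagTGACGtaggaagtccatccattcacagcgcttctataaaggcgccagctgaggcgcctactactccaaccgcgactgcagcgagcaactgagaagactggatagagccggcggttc
Nr4a1: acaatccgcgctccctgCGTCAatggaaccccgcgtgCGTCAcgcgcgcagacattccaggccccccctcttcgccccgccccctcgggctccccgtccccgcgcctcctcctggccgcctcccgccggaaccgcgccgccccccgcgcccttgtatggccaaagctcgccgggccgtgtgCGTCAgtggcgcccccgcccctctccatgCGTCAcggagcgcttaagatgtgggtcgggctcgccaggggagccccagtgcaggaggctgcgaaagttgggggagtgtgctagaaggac
Dusp1: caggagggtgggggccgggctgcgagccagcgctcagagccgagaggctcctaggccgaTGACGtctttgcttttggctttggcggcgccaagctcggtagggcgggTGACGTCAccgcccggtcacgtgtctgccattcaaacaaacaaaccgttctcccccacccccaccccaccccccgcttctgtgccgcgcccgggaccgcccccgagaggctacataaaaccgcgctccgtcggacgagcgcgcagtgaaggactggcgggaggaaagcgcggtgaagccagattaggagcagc
Jun: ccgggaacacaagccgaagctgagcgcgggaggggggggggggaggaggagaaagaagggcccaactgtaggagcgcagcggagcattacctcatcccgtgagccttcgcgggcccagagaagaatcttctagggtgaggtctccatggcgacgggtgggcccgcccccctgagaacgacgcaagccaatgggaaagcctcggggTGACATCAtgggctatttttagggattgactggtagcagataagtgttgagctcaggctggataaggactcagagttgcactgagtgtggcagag
Dusp5: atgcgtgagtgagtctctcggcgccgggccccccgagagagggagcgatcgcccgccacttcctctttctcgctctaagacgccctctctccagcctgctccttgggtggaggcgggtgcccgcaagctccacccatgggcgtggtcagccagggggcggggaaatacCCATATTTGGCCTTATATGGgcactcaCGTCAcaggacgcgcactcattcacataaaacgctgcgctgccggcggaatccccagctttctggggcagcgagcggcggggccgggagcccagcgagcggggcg
The Dusp5 window holds a pair of adjoining CArG boxes, at positions -82 to -73 and -72 to -63 from the start site. The Dusp1 window holds TGACGTCA at -143 to -136, the Jun window TGACATCA at -45 to -38, and the Nr4a1 window TGACG on the minus strand at 4 places. These windows were chosen by the signals of their genes. Among other genes higher in vector 2 and MTf 4, Junb also has TGACG in its window. The windows of Fosl2, Jund, Zfp36 and Spry2 have none, and Dusp4 and Spry4 have no window. A link between these letters and the order of lines was not tested.

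No member passed the test across the whole array. Of the 62 probe sets, 49 passed the low-signal filter (a mean signal of at least 206), and they cover 27 of the 31 genes. By limma with Benjamini-Hochberg adjustment over 22519 probe sets, 0 of the 49 passed the threshold of 0.05, and the share over all probe sets was 0.00444%. Meltf, the overexpressed gene, did not pass it either (limma, adjusted p = 0.0911), so a member that did not pass may still differ. At an unadjusted p under 0.05 there were 7 of the 49 (14.3%), against 1.81% of all probe sets. Of these, 3 were higher in the clones (Dusp5, Jun and Klf4), where 1.01% of all probe sets were, and 4 were lower (Fosl1, Spry4 and 2 of Nr4a2), where 0.799% were. Of these 7, Dusp5 had a vector mean and both Nr4a2 probe sets a clone mean below the filter value of 206. These 3 were tested only through the group where they were high, so the counts of tested members are descriptions. Probe sets of 1 gene share their transcript and are not independent. By the tested probe set with the highest mean of each gene, Fosl1, Klf4 and Dusp5 were under this p. That is 3 of 27 genes, against 188 of all 10706 tested genes. Jun, Nr4a2 and Spry4 were under it by dimmer probe sets only. Without vector 1, the 1 member under this p was Dusp5.

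As a list, the members had differences of both signs in nearly equal number. Of the 27 genes, each represented by its tested probe set with the highest mean, 13 had positive and 14 negative differences. Their median was -0.01, against -0.0050 over all 10706 tested genes. Clones and vector lines stood fully apart in 21 of the 49 probe sets (42.9%), 10 with the clones higher and 11 with the clones lower, where over all probe sets the shares were 25.8%, 12.1% and 13.6%. Counted by gene, it was 9 of 27 (33.3%), against 24.4% of all tested genes. The highest array was at least 2-fold above the lowest for 6 of the 27 genes (22.2%), against 11.8% of all tested genes.

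**Figure D1:**
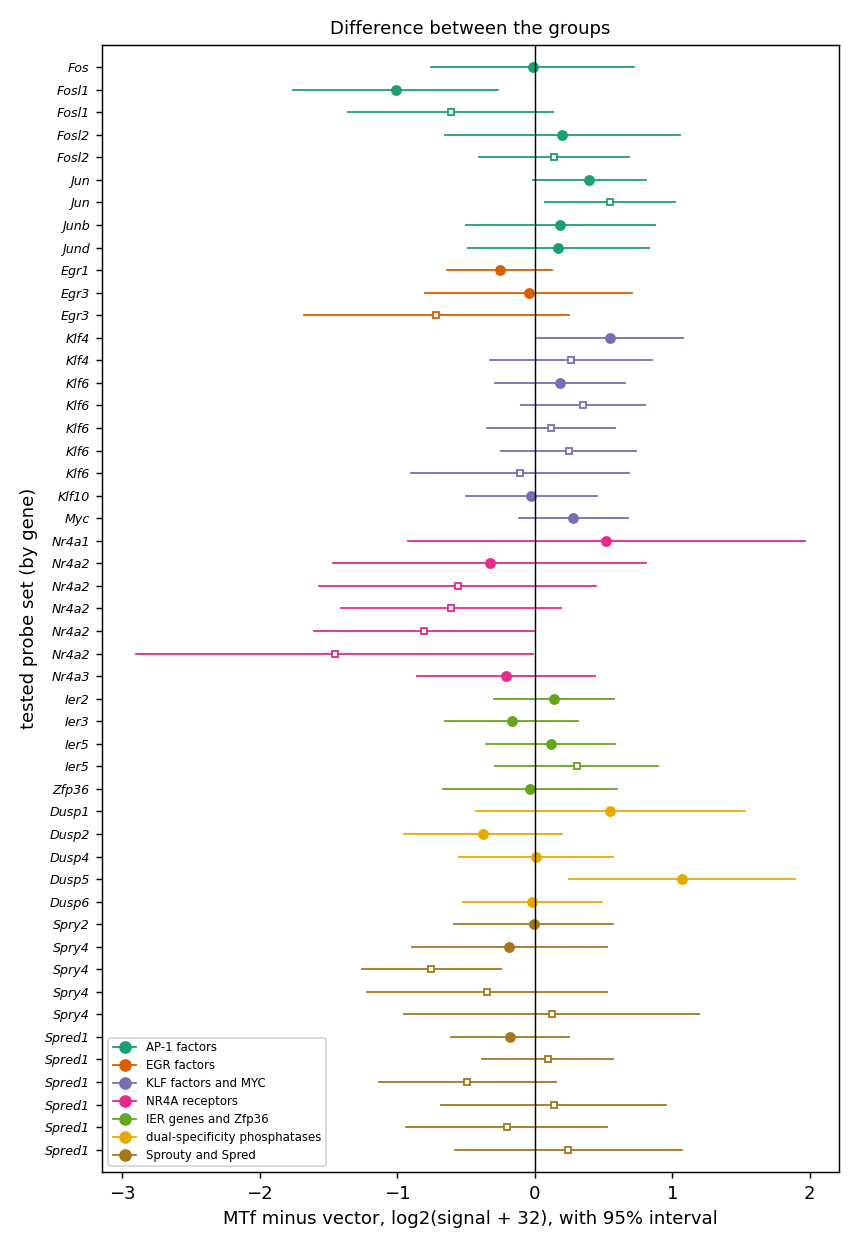
Difference between the groups for the 49 tested member probe sets (x axis, MTf minus vector on the log2(signal + 32) scale; y axis, probe sets by gene; bars, 95% intervals of limma, n = 2 arrays per group). Filled circles are the probe set with the highest mean of each gene and open squares the others; most intervals cross 0, and the estimates of Fosl1 and Nr4a2 lie on the negative side and those of Jun, Klf4 and Dusp5 on the positive side.

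Among the AP-1 genes, whose FOS and JUN proteins pair into the dimers that bind AP-1 sites, Fosl1 and Jun parted the groups in opposite directions. Fosl1 encodes FRA-1, a late and ERK-stabilised member of the FOS family. It was at 3234 and 2011 in the vector lines and 976 and 1597 in the clones. Both clones thus lay below both vector lines, with MTf 4 lowest and vector 1 highest. The vector lines averaged 2623 ± 865 (SD, n = 2) and the clones 1286 ± 439 (SD, n = 2), a log2 difference of -1.01 (SE 0.32, 95% interval -1.76 to -0.27; limma, unadjusted p = 0.0145, adjusted p = 1.00). It was -0.67 without vector 1 (limma, unadjusted p = 0.0969) and -0.67 without MTf 4, against -1.35 without vector 2 and -1.36 without MTf 6. The other Fosl1 probe set was at 814, 568, 337 and 557 in the same order. It ranked the lines in the same order, with vector 2 just above MTf 6, and its difference was -0.61 (95% interval -1.36 to 0.14).

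Jun, the main partner of the FOS proteins, was at 5077 and 5007 in the vector lines and 6431 and 6878 in the clones by its brightest probe set. The clones lay close together above the vector lines, with a difference of 0.40 (SE 0.18, 95% interval -0.01 to 0.81; limma, unadjusted p = 0.0564, adjusted p = 1.00). The other probe set was at 1752, 2133, 2902 and 2775, again with both clones above both vector lines. Its difference was 0.55 (SE 0.20, 95% interval 0.07 to 1.02; limma, unadjusted p = 0.0294, adjusted p = 1.00), so the 2 probe sets of Jun gave like estimates.

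The other AP-1 genes varied between lines of the same group. Fos itself was at 859 and 1119 in the vector lines and 1310 and 717 in the clones, so the clones held both its highest and its lowest value. Its difference was -0.01 (95% interval -0.75 to 0.72). Fosl2, which encodes FRA-2, was at 4397, 7746, 9267 and 4859 in the same order, with vector 2 and MTf 4 high and a difference of 0.20 (95% interval -0.65 to 1.06). Junb, a JUN protein that is a weaker activator than JUN at many sites, was at 1028, 1166, 1661 and 939, with MTf 4 highest. Jund, the most constantly expressed JUN gene in many cells, was at 8539, 15662, 13476 and 12616, with vector 1 alone low. A second Jund probe set, below the filter, was at 351, 107, 143 and 118, with vector 1 alone high. Fosb, a FOS gene with low basal expression, was below the filter and not tested. Its signals were 119 and 187 in the vector lines and 15.6 and 27.1 in the clones, and the clones' values lay under the offset of 32, where signals carry little information.

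**Figure D2:**
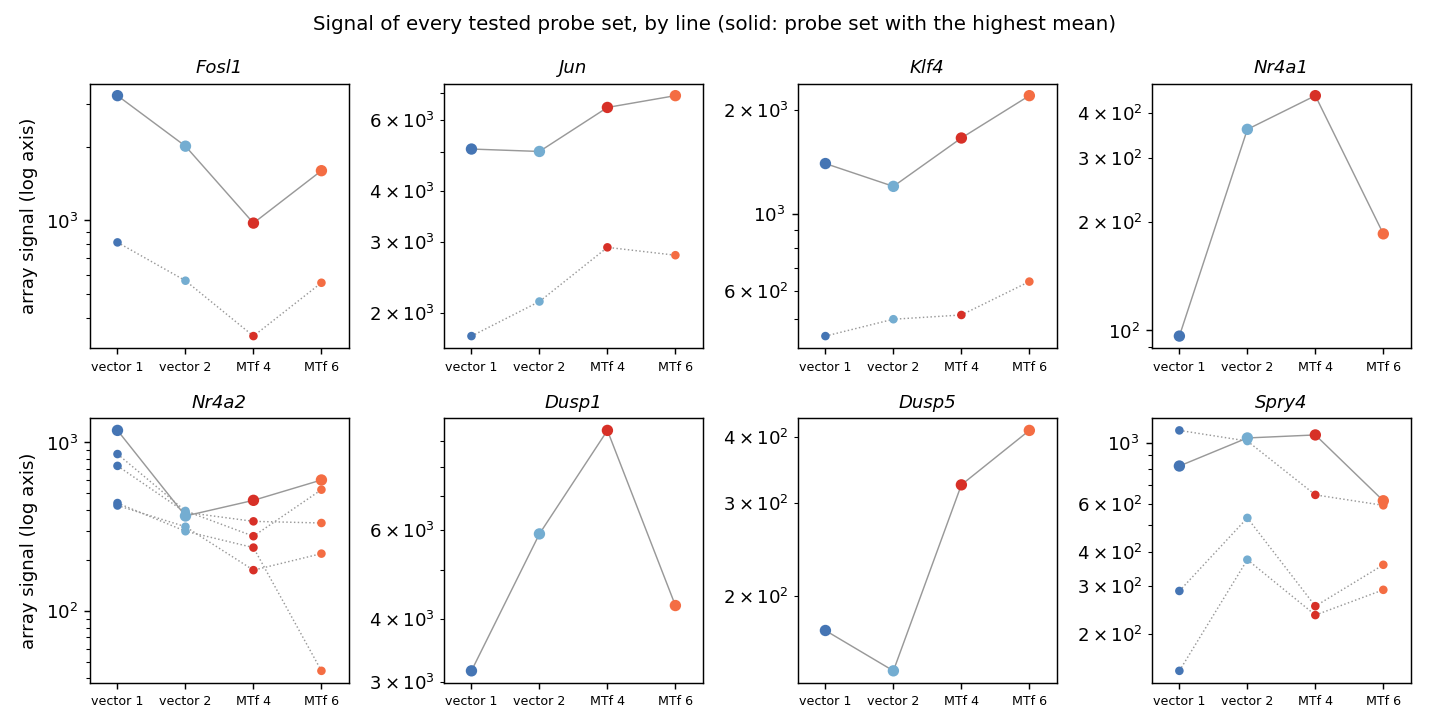
Signals of every tested probe set of 8 member genes by line (y axis, array signal on a log axis with its own range in each panel; x axis, the 4 lines; 1 array each, so no error bars). Lines join the values of 1 probe set, solid for the one with the highest mean; Jun and Dusp5 are higher and Fosl1 lower in both clones, while Nr4a1 and Dusp1 peak in vector 2 and MTf 4.

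The EGR genes encode zinc-finger factors that bind GC-rich sites, and Egr1 is a standard marker of ERK activation. Egr1 was at 12133 and 12504 in the vector lines and 10152 and 10484 in the clones. The groups did not overlap and each was tight, but the difference was small, at -0.25 (SE 0.16, 95% interval -0.64 to 0.13; limma, unadjusted p = 0.161, adjusted p = 1.00). Egr3, an induced relative, had 2 tested probe sets that differed from each other. By the one with the highest mean it was at 277, 434, 327 and 344 in the same order, a difference of -0.05. By the other it was at 446, 402, 376 and 156, a difference of -0.72 (95% interval -1.68 to 0.25) that rested on the low value of MTf 6. Both Egr2 probe sets were below the filter, at 157, 227, 220 and 174 and at 53.4, 148, 145 and 83.5, with vector 2 and MTf 4 the higher lines in both.

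Among the KLF factors and MYC, Klf4 was higher in both clones. Klf4 encodes a factor known both for growth arrest and for reprogramming. It was at 1401 and 1204 in the vector lines and 1660 and 2199 in the clones, with MTf 6 highest. The difference was 0.55 (SE 0.23, 95% interval 0.01 to 1.08; limma, unadjusted p = 0.0458, adjusted p = 1.00), and 0.35 without MTf 6. The second probe set was at 446, 498, 513 and 640, so the groups were again apart but MTf 4 barely exceeded vector 2, and the difference was 0.27.

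Myc, the growth-promoting factor, was at 7932 and 8157 in the vector lines and 9453 and 10123 in the clones. Its groups did not overlap, with a difference of 0.28 (SE 0.17, 95% interval -0.11 to 0.68; limma, unadjusted p = 0.138, adjusted p = 1.00). Klf6, a factor induced early after serum and injury, had 5 tested probe sets with differences from -0.11 to 0.35, of which 2 parted the groups with the clones higher. MTf 6 was the highest array in 4 of the 5, and the exception was a probe set of the x type, whose probes may bind other transcripts. Klf10, a TGF-beta-inducible factor, stayed between 1278 and 1445 in all lines, with a difference of -0.02. Klf2, known from endothelial cells, was below the filter, at 195, 223, 98.5 and 219 in the usual order.

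The NR4A genes encode orphan nuclear receptors that are controlled mainly by their own abundance, and Nr4a1 and Nr4a2 differed widely from line to line. Nr4a1 was at 96.5 and 359 in the vector lines and 445 and 185 in the clones, a 3.71-fold span. The vector lines thus enclosed MTf 6, and the difference of 0.52 had a 95% interval from -0.92 to 1.97. Nr4a2 ran the other way in the vector lines, at 1180 in vector 1 and 367 in vector 2, with 454 in MTf 4 and 600 in MTf 6 by its brightest probe set. Vector 1 stood apart by this probe set, and the difference was -0.33 (95% interval -1.47 to 0.81).

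All 5 tested probe sets of Nr4a2 had negative differences and were highest in vector 1. In 3 of them both clones lay below both vector lines. The first of these was at 727 and 386 in the vector lines and 341 and 333 in the clones. The second was at 423, 317, 175 and 219 and had a difference of -0.80 (SE 0.34; limma, unadjusted p = 0.0487, adjusted p = 1.00). The third was at 438, 298, 238 and 44.3, and its difference of -1.45 (SE 0.62; limma, unadjusted p = 0.0489, adjusted p = 1.00) was drawn out by MTf 6. The clone means of these last 2 probe sets lay below the filter value, so both were tested only through the vector lines, where they were high. The remaining probe set was at 854, 393, 278 and 525, with MTf 6 above vector 2. A sixth Nr4a2 probe set was below the filter, at 41.9, 68.6, 26.3 and 25.4. Nr4a3, the third receptor, was at 442, 602, 401 and 488 by its tested probe set, a difference of -0.21, and its other 2 probe sets were below the filter, at 105, 77.7, 84.1 and 112 and at 16.3, 89.3, 7.4 and 15.4.

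Between the groups, the IER genes and Zfp36 had differences from -0.17 to 0.31 by their tested probe sets. Ier2, a small nuclear protein of the early response, was at 3307, 3069, 3615 and 3407 in the usual order, with the clones higher by 0.14. Ier3, a stress-responsive survival factor, was at 4894 in vector 1 and between 3734 and 3811 in the other 3 lines. Ier5 had differences of 0.12 and 0.31 by its 2 tested probe sets, and the second parted the groups with the clones higher. The other Ier5 probe set, below the filter, was at 213, 172, 157 and 190. Zfp36, whose protein tristetraprolin speeds the decay of AU-rich mRNAs, was at 558, 603, 690 and 463, with both extremes in the clones and a difference of -0.03.

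Of the dual-specificity phosphatases, Dusp5 had the largest positive difference among the tested members. Dusp5 encodes a nuclear phosphatase that acts on ERK and is itself induced by ERK, and its promoter window above holds the adjoining CArG boxes. Any part of ERK or of these boxes in its signals was not tested. Dusp5 was at 172 and 144 in the vector lines and 325 and 412 in the clones. Both clones lay well above both vector lines, at 369 ± 61.8 (SD, n = 2) against 158 ± 19.7 (SD, n = 2). The difference was 1.07 (SE 0.35, 95% interval 0.25 to 1.89; limma, unadjusted p = 0.0173, adjusted p = 1.00), or 2.10-fold. The vector lines were below the filter value of 206, so Dusp5 passed the filter through the clones alone, and it has 1 probe set among the members.

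Dusp1, the phosphatase of JNK, p38 and ERK that is induced by stress and glucocorticoids, was at 3161 and 5892 in the vector lines and 9432 and 4254 in the clones. It spanned 2.96-fold, with MTf 6 between the vector lines, and its difference of 0.55 had a 95% interval from -0.43 to 1.53. Dusp6, the cytoplasmic ERK phosphatase and a common readout of ERK activity, was at 4196, 3332, 4116 and 3320. Each group held 1 high and 1 low line, and the difference was -0.02 (95% interval -0.52 to 0.49). Dusp4, a nuclear phosphatase of ERK and JNK, was at 1414 and 1417 in the vector lines and at 1718 in MTf 4 and 1180 in MTf 6, so its vector lines were nearly equal between the clones. Dusp2, a nuclear phosphatase best known from immune cells, was at 614, 781, 497 and 556, with the clones lower by a difference of -0.38 (95% interval -0.95 to 0.19).

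The Sprouty and Spred genes encode membrane-associated inhibitors of receptor tyrosine kinase signalling, and their probe sets disagreed with each other. Spry4 had 4 tested probe sets. By 1 of them the groups were far apart, at 1111 and 1016 in the vector lines and 646 and 591 in the clones. That difference was -0.75 (SE 0.22, 95% interval -1.26 to -0.25; limma, unadjusted p = 0.00930, adjusted p = 1.00), the smallest unadjusted p among the members. The Spry4 probe set with the highest mean was at 823, 1042, 1069 and 614, with MTf 4 the highest line. The others were at 287, 532, 253 and 358, and at 147, 374, 235 and 290. These 3 did not part the groups and had differences of -0.18, -0.35 and 0.12, so 3 of 4 estimates were negative and the groups were fully apart by 1 of 4 probe sets.

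Spry2 was at 2132, 3287, 2645 and 2618, with the clones between the vector lines and a difference of -0.01 (95% interval -0.59 to 0.57). Its other probe set was below the filter, at 209, 177, 102 and 148. Spred1 had 6 tested probe sets, with differences from -0.49 to 0.24. The one with the highest mean was at 4174, 4585, 3814 and 3907, a difference of -0.18 with the groups apart by a small margin. A second that parted the groups, also with the clones lower, was at 467, 565, 400 and 318. Probe sets with the opposite sign had differences of 0.09, 0.14 and 0.24. The last of these was at 375, 276, 510 and 293, with MTf 4 highest. Another 2 Spred1 probe sets were below the filter, at 72.2, 131, 28.6 and 151 and at 16.5, 3.9, 15.1 and 14.5. Of the 6 tested, 3 are of the s type, whose probes match several transcripts. Spry1 was below the filter, at 189, 143, 251 and 172.

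**Figure D3:**
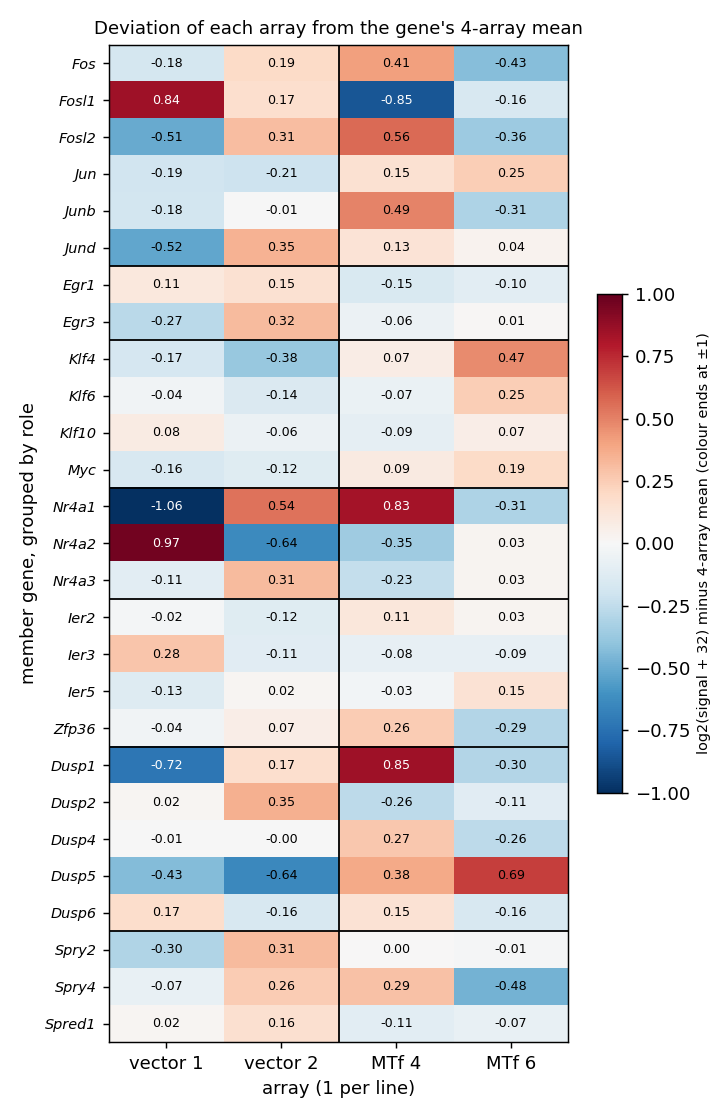
Deviation of each array from the 4-array mean for the 27 tested member genes (rows, by role; columns, lines; colour and printed value, log2(signal + 32) minus the gene's mean; 1 array per line). Nr4a1 and Dusp1 are low in vector 1 and high in MTf 4, Nr4a2 and Fosl1 are high in vector 1, and Dusp5 separates the 2 groups.

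Lines of 1 group also differed from each other. Over the 27 genes the median size of the difference was 0.33 for vector 2 against vector 1 and 0.31 for MTf 4 against MTf 6, and 0.18 for clones against vector lines, where a mean of 2 arrays stands on each side and smaller values follow from the averaging. Over all tested genes these medians were 0.24, 0.29 and 0.13. The 2 vector lines differed at least 2-fold in 4 of the 49 tested probe sets (8.16%), against 3.76% of all probe sets. The 2 clones also differed at least 2-fold in 4 of the 49 (8.16%), against 5.26% of all. Nr4a1 was among both, by 1.61 on the log2 scale for vector 2 minus vector 1 and by 1.14 for MTf 4 minus MTf 6. Dusp1 differed by 0.89 and 1.14 in the same terms, Fosl2 by 0.81 and 0.93, and Fos by 0.37 and 0.84. These genes were thus high in vector 2 and MTf 4 and low in vector 1 and MTf 6. Each line has 1 array, so these values have no replicate check.

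In all, 10 of the 27 genes were higher both in vector 2 than in vector 1 and in MTf 4 than in MTf 6: Fos, Fosl2, Junb, Jund, Nr4a1, Zfp36, Dusp1, Dusp4, Spry2 and Spry4. That share, 37.0%, was near the 35.7% of all tested genes. The reverse order held for 7 of the 27, Fosl1, Jun, Klf4, Klf6, Klf10, Nr4a2 and Dusp5 (25.9%), against 27.9% of all tested genes. Genes of DNA replication, a list added after the data were seen, had the reverse order of lines. Over 25 of its genes the median deviation from the 4-array mean was 0.48 and -0.34 in the vector lines and -0.40 and 0.29 in the clones. Between the groups 2 of the 25 had positive and 23 negative differences (median -0.14). Over all 10706 tested genes, 5247 were positive and 5459 negative (median -0.0050). By limma 0 of the 25 passed the adjusted threshold and 0 were under an unadjusted p of 0.05. The part of growth state in the members' differences, between lines or groups, was not tested.

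**Figure D4:**
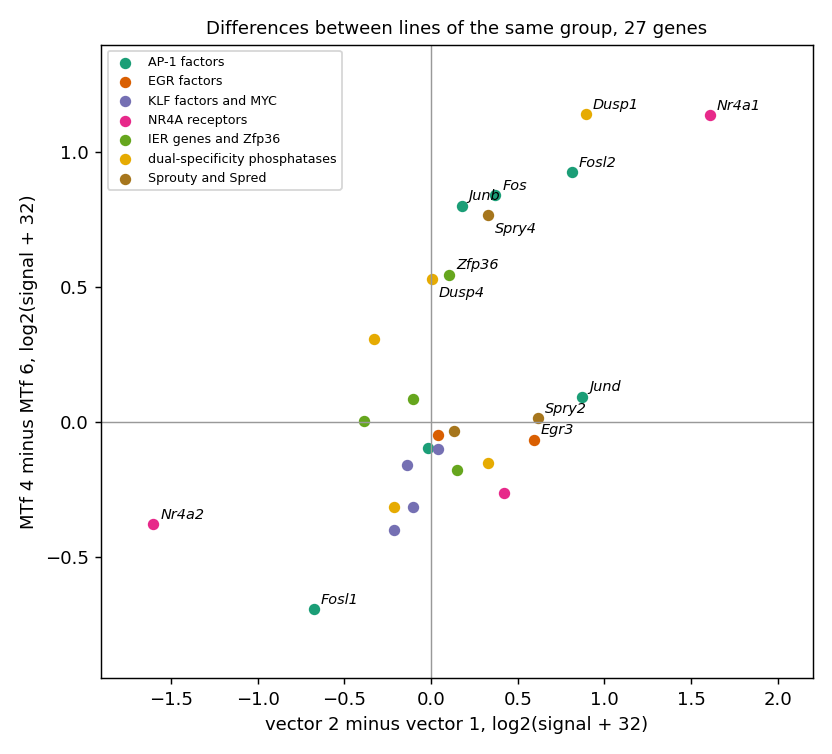
Differences between lines of the same group for the 27 tested member genes (x axis, vector 2 minus vector 1; y axis, MTf 4 minus MTf 6; both on the log2(signal + 32) scale; 1 point per gene, coloured by role). Dusp1, Nr4a1, Fosl2, Fos, Junb and Spry4 lie at the upper right, high in vector 2 and MTf 4, and Fosl1 and Nr4a2 at the lower left.

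The genes around the members were read from lists of the same pathway, and 0 of their genes passed limma's adjusted threshold. Over all 10706 tested genes, 0 passed it, 188 were under an unadjusted p of 0.05, and the median difference was -0.0050. Of 16 growth factor genes 10 were tested, 2 with positive and 8 with negative differences (median -0.05), and 0 were under an unadjusted p of 0.05. Pdgfc, a ligand of the PDGF receptors, was at 404, 82.7, 298 and 545, with vector 2 alone low. Of 12 growth factor receptors 10 were tested, 4 positive and 6 negative (median -0.06), also with 0 under that p. Pdgfrb, the PDGF receptor of fibroblasts, was at 2006 and 1437 in the vector lines and 1191 and 1238 in the clones. Fgfr3 was at 449, 414, 304 and 250 in the same order. Both clones were below both vector lines for these receptors, with differences of -0.47 and -0.59.

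Of 23 genes of the RAS-ERK cascade, 15 were analysed here, 8 positive and 7 negative, with a median of 0.01, and 0 were under an unadjusted p of 0.05. Ksr1, a scaffold of the cascade, was at 127, 278, 290 and 485, and Map2k2, which encodes MEK2, at 4102, 2710, 4496 and 4166. Of 6 genes for serum response factor, its ternary complex factors and its actin-regulated cofactors, 3 were positive and 3 negative, with a median of 0.02 and 0 under that p. Srf itself was at 1133, 1300, 1772 and 1583, with both clones higher and a difference of 0.45 (95% interval -0.03 to 0.94). Elk1, a ternary complex factor, was at 428, 499, 422 and 228, with a difference of -0.52.

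Of 18 further ERK feedback and output genes, 14 were tested, 6 positive and 8 negative, with a median of -0.11 and 1 under an unadjusted p of 0.05. That gene was Dusp8, a phosphatase of JNK and p38, at 109 and 461 in the vector lines and 836 and 673 in the clones (difference 1.57; limma, unadjusted p = 0.0218, adjusted p = 1.00). Vector 1 was far below the other lines. Etv5, an ETS factor that follows ERK activity, was at 2140, 2350, 1790 and 1490, with the clones lower. Ccnd1, cyclin D1, was at 17756, 15601, 14641 and 12733, also with the clones lower, by a difference of -0.29.

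Of 20 further immediate-early genes, 15 were tested, 10 positive and 5 negative, with a median of 0.14 and 2 under an unadjusted p of 0.05. Ccn1, the secreted matrix protein CYR61 and a target of serum response factor, was at 6981 and 8004 in the vector lines and 23817 and 11445 in the clones. Its difference was 1.14 (SE 0.32; limma, unadjusted p = 0.00903, adjusted p = 1.00), with MTf 4 far above MTf 6, by a probe set of the x type. Gadd45b, a stress-induced gene, was at 291, 326, 463 and 635 (difference 0.76; limma, unadjusted p = 0.0313, adjusted p = 1.00). Of 10 actin cytoskeleton targets of serum response factor, 6 were tested, 4 positive and 2 negative, with a median of 0.05. Among them Cnn2, calponin 2, was at 9595, 9792, 13941 and 11998 (difference 0.41; limma, unadjusted p = 0.0454, adjusted p = 1.00), with both clones above both vector lines.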

How the data were processed

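Total RNA of 4 lines was measured on 1 array each. For each probe set the authors deposited 1 linear intensity per array. GCOS 1.3 is named, per the submitters' processing notes, and how it was set is not given in the sources used here. Arrays were used as deposited. Signals were converted to log2(signal + 32). Probe sets with a mean signal below the median of the 45037 that are not controls were left out, and 22519 were tested with limma 3.58.1 in R 4.3.3 (lmFit, eBayes with a trend, all 4 arrays), and p-values were adjusted by Benjamini and Hochberg, with 0.05 as the threshold. The smallest two-sided exact permutation p with 2 against 2 arrays is 0.333. The number of arrays limits the precision. The script was tested on simulated data.

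Members and lists were chosen with earlier results of these data known. Genes were matched by gene ID to RefSeq. All 31 genes are accounted for, and all 4 values are given for members with an unadjusted p under 0.05, with groups apart by at least 0.4 or with a 2-fold span, among others. Of each further list, up to 3 genes with the smallest unadjusted p were eligible to be named.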

Additional observations from a re-analysis of the deposited data

How the results depend on the processing

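No paired analysis was possible because the groups share no replicate number in the labels. In the 14 settings tried, 13 of them planned and 1 (a filter on the mean of log2 values) added after the data were seen, 0 member probe sets passed limma's adjusted threshold wherever probe sets were counted. Members under an unadjusted p of 0.05 were 7 as reported, 4 with quantile normalization, 3 of 24 with a filter at the 75th percentile, and between 1 (without vector 1) and 8 (without vector 2) with 1 array left out. Over the whole array 1 probe set passed, but 0 did without the filter, with the filter at the 75th percentile and without a trend, and 1 to 21 with 1 array left out. The members' median difference was 0.12 with the filter at the 75th percentile (19 genes), and -0.077 to 0.18 with 1 array left out. A fit with 1 array left out leaves a lone array in a group, which is assumed to vary like the rest. The differences of genes kept their sign in every other setting. With 1 array left out, the sign turned for 16 of the 27 genes, and their differences ranged as follows. They were -0.021 to 1.12 for Dusp1, -0.26 to 0.27 for Dusp4, -0.18 to 0.15 for Dusp6, -0.34 to 0.25 for Egr3, -0.44 to 0.41 for Fos, -0.26 to 0.66 for Fosl2, -0.36 to 0.027 for Ier3, -0.21 to 0.59 for Junb, -0.26 to 0.61 for Jund, -0.11 to 0.056 for Klf10, -0.28 to 1.32 for Nr4a1, -1.13 to 0.47 for Nr4a2, -0.42 to 0.0027 for Nr4a3, -0.32 to 0.30 for Spry2, -0.57 to 0.20 for Spry4 and -0.31 to 0.24 for Zfp36. Fosb, Egr2, Klf2 and Spry1 were below the filter in the reported setting, so low signal limits what their values can show.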
